A study of Mus musculus with 10 samples.

Results

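Srsf2 and the 2 genes whose annotated exons overlap it, Mettl23 and Mfsd11, were followed in microglia sorted from mouse retina. They were taken by name from the deposited table of all genes, and all 3 were found among its 55487 genes and among the 18957 genes with enough reads to test. Srsf2 was chosen because it was much higher 8 weeks after streptozotocin (STZ), and its neighbours because they lie across it. The 8wk STZ against Control values of all 3 genes, and the 8wk STZ against 4wk STZ values of Srsf2, are therefore given as descriptions with no test. The question asked of the neighbours was whether reads on exonic bases they share with Srsf2 could account for its higher count.

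The groups were 8wk STZ (n = 4), 4wk STZ (n = 3) and Control (n = 3), the last being littermates. STZ is toxic to pancreatic beta cells and makes mice diabetic. Every animal, controls included, was Cx3cr1GFP/+, so that a GFP reporter stands in for one Cx3cr1 allele and all groups lack one working copy of that receptor. Viable GFP-positive cells were sorted from both retinas of an animal, pooled. The gate also takes other myeloid cells that express Cx3cr1. The labels give no ages, and a difference in age between groups cannot be told apart from the time after STZ.

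SRSF2, also called SC35, is a serine- and arginine-rich (SR) splicing factor that binds exonic enhancers, helps the spliceosome choose splice sites and assists release of paused RNA polymerase II. It limits its own amount, because high SRSF2 protein favours splice forms of its own message that are degraded by nonsense-mediated decay. Recurrent SRSF2 mutations are found in human myeloid cancers. METTL23 belongs to a family of protein methyltransferases and is linked in humans to inherited intellectual disability, and MFSD11 is a membrane protein of the major facilitator superfamily whose cargo is not established.

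The 3 genes lie on chromosome 11 (GRCm38, GENCODE vM21). Srsf2 (ENSMUSG00000034120) spans 116849901 to 116853094 on the minus strand, with 2958 exonic bases over 6 transcripts. Mettl23 (ENSMUSG00000090266) spans 116843278 to 116854263 on the plus strand, across the whole of Srsf2, with 2697 exonic bases over 8 transcripts. Mfsd11 (ENSMUSG00000020818) spans 116852440 to 116875635, also on the plus strand, with 7076 exonic bases over 12 transcripts. The deposited table lists the same numbers of transcripts, 6, 8 and 12.

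Each overlap rests on a single annotated transcript of the neighbour. Of the 8 Mettl23 transcripts, 1 shares exonic bases with Srsf2, the retained-intron form Mettl23-206. It reaches 460 bases into the Srsf2 end (116849901 to 116850360), which is 15.55% of the exonic bases of Srsf2 and holds none of its coding sequence. The coding form Mettl23-201 stops 160 bases short of Srsf2. Of the 12 Mfsd11 transcripts, 1 shares bases with Srsf2, Mfsd11-209, which is annotated as a target of nonsense-mediated decay. Its 288 shared bases (116852568 to 116852855) are 9.736% of the exonic bases of Srsf2, and all 288 are Srsf2 coding sequence. That leaves 2210 exonic bases that belong to Srsf2 alone.

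**Figure D1:**
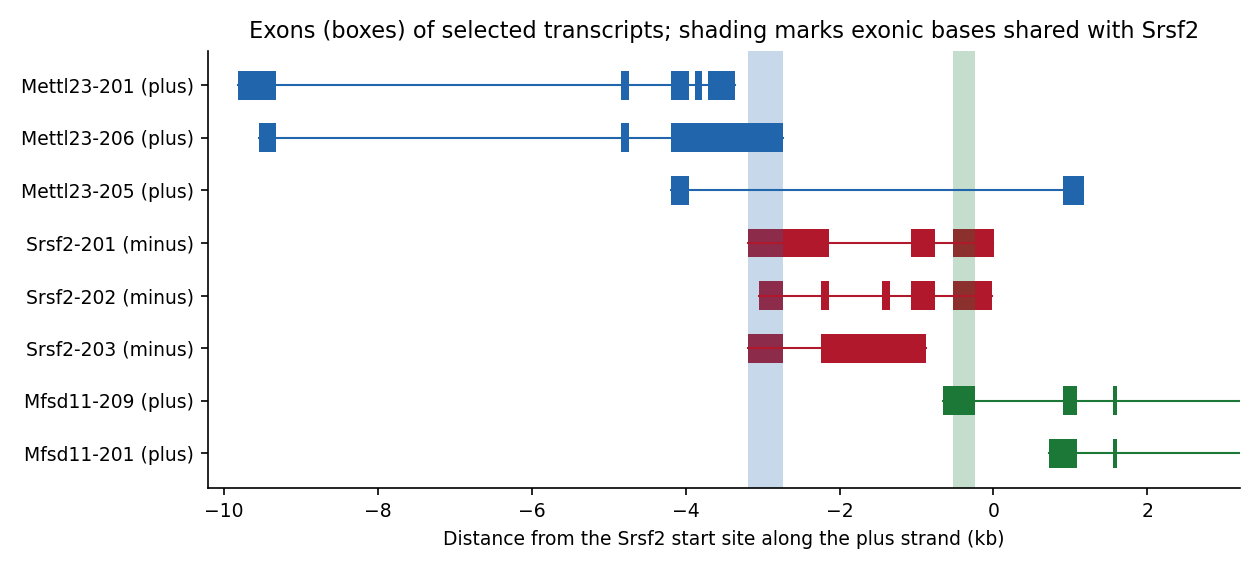
Exons (boxes) and introns (lines) of 8 transcripts of the 3 genes, drawn by distance in kb from the Srsf2 start site, with the strand beside each name. The shaded bands are the 460 bases shared with Mettl23 (blue, met by Mettl23-206) and the 288 shared with Mfsd11 (green, met by Mfsd11-209), and Mfsd11 runs on past the right edge.

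The coding overlap is shown because it is the stretch where a read with no strand could come from either Srsf2 or Mfsd11. Printed 5′ to 3′ on the Srsf2 strand, chr11:116852568-116852867, its first 12 bases in lower case belong to Srsf2 alone and its 288 capitals are also exonic in Mfsd11-209:
Srsf2 and Mfsd11 overlap: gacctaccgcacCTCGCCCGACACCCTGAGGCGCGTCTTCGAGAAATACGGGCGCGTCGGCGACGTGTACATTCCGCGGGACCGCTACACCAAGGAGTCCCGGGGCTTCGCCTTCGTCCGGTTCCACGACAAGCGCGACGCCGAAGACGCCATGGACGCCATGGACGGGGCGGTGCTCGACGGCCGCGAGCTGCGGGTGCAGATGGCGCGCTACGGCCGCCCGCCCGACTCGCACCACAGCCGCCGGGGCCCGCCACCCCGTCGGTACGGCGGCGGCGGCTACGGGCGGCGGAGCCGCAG
The shared bases are 73.96% G or C, and lie in the first exon of Srsf2-201.

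The start sites of Srsf2 and Mfsd11 in RefSeq (GRCm38.p6) face away from each other with 667 bases between them, at 116853094 and 116853762. Their promoters are shown because the 2 genes start side by side and their counts follow different patterns across the groups. Each stretch runs from 250 bases before the start site to 30 bases after it, Srsf2 at chr11:116853065-116853344 (minus strand) and Mfsd11 at chr11:116853512-116853791 (plus strand). Capitals mark matches to the letters TATAAA of the TATA element, CCAAT of the CAAT element or TGAGTCA of an AP-1 site, searched on both strands, with no overlap between the matches shown:
Srsf2 promoter: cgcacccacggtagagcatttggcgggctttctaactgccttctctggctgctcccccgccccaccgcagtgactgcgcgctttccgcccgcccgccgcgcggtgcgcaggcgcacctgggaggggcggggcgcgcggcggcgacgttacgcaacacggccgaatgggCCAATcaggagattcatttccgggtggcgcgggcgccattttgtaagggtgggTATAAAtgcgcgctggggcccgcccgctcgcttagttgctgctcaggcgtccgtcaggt
Mfsd11 promoter: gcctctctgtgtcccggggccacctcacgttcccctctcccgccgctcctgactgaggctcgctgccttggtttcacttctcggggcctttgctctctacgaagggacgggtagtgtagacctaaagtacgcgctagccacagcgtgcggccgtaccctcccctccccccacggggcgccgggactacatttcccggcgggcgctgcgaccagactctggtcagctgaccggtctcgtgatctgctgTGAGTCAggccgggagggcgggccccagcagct
The Srsf2 promoter held a TATA element match 29 bases and a CAAT element match 82 bases before its start site, and the Mfsd11 promoter held an AP-1 match across its start site. RefSeq lists a second Mfsd11 start at 116854000, whose window held a CAAT element match at -54 and the same AP-1 match at -241 from that start, counted in bases, and was 63% G or C. Over windows that end 50 bases after the start site, the TATA element letters were present in 13.6%, the CAAT element letters in 37.4% and the AP-1 letters in 5.2% of 32851 RefSeq promoters. Over the same window the Srsf2 promoter was 69.33% G or C and the promoter of the first Mfsd11 start 67%, against a median of 52.67% for all promoters. A match of letters does not show that a factor binds there.

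Library totals ran from 46143178 to 62903489 reads in 8wk STZ, from 33266838 to 49051036 in 4wk STZ and from 45656309 to 54312248 in Control. The 3 genes had between 1032 and 12171 reads in a library, so the counting error of a single value lay between 0.906% and 3.11%. On the first 2 principal components of log2 CPM (16.8% and 14.3% of the variance) Control 3 and 4wk STZ 3 stood apart, Control 3 at -0.70 on the first where the others ran from -0.26 to 0.36, and 4wk STZ 3 at 0.84 on the second where the others ran from -0.49 to 0.10. The 8wk STZ libraries lay at 0.263 to 0.358 on the first, and every other library at 0.0499 or below. Their mean correlation within the group was 0.946 to 0.949, against 0.908 to 0.916 in the other groups. Their TMM factors were 1.003 to 1.082, against 0.9466 to 0.9882. A library-wide difference of this group cannot be told apart from the time after STZ.

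Microglial markers (12 of 12 with reads in every library) took 3.59% to 4.04% of reads in 8wk STZ, 3.76% to 4.18% in 4wk STZ and 4.25% to 4.56% in Control. Of the 12, 4 were called lower and 1 higher for 8wk STZ against Control, beside 1.4% and 0.971% of all genes. Rod photoreceptor markers (16 of 16) moved with the groups, at 0.502% to 0.658% of reads in 8wk STZ, 0.723% to 1.03% in 4wk STZ and 1.31% to 1.44% in Control. All 16 were called lower for 8wk STZ against Control, beside 1.4% of all genes. Inner retinal neuron markers took 0.00728% to 0.0114% of reads in 8wk STZ, 0.0161% to 0.0185% in 4wk STZ and 0.0173% to 0.0199% in Control, with Grm6 at 0 in an 8wk STZ library. The Müller glia and astrocyte list took 0.617% to 2.10% of reads in 8wk STZ, 0.342% to 0.623% in 4wk STZ and 0.276% to 0.571% in Control. Without Apoe, which microglia also make and which was set aside after its values were seen, the shares were 0.0720% to 0.0968% in 8wk STZ, 0.107% to 0.125% in 4wk STZ and 0.0909% to 0.132% in Control. Border macrophage and monocyte markers took 0.00738% to 0.0704% of reads in 8wk STZ, 0.0158% to 0.0421% in 4wk STZ and 0.0158% to 0.0438% in Control, with Cd163 and Ly6c2 at 0 in an 8wk STZ library. For 8wk STZ against Control, 3 of 10 Müller glia and astrocyte markers and 2 of 10 inner retinal neuron markers were called lower. Of all genes 1.4% were called lower in that contrast. In these 2 lists 0 were called higher, and 0 border macrophage and monocyte markers were called. The part of these other cells in the results below was not tested. In bulk samples, fewer cells of a type and less RNA per cell cannot be told apart.

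Srsf2 was high in 8wk STZ microglia and overlapped Control in 4wk STZ microglia. Values are CPM, read counts scaled to library size with trimmed mean of M-values (TMM) factors. Srsf2 had 149.4, 243.9, 213.7 and 178.3 CPM in 8wk STZ libraries 1 to 4, 48.4, 29.0 and 42.9 CPM in 4wk STZ libraries 1 to 3, and 36.2, 31.6 and 34.5 CPM in Control libraries 1 to 3. All 4 8wk STZ libraries lay above every other library, the lowest of them 3.08 times the highest 4wk STZ library and 4.12 times the highest Control library. The 4wk STZ libraries overlapped Control, with 2 of 3 above the highest Control library and 1 below the lowest.

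Srsf2 averaged 196.3 ± 41.2 CPM in 8wk STZ, 40.1 ± 10.0 CPM in 4wk STZ, against 34.1 ± 2.33 CPM in Control (SD, n = 4, 3 and 3). The log2 fold change was 2.52 (SE 0.21) for 8wk STZ against Control, which is 5.75-fold, and 2.29 (SE 0.21) for 8wk STZ against 4wk STZ. In the authors' deposited table the log2 fold change for 8wk STZ against Control was 2.52. Between 4wk STZ and Control its log2 fold change was 0.23 (SE 0.21, 95% interval -0.22 to 0.69, edgeR quasi-likelihood adjusted p = 0.802). That interval takes in a fall to 0.856-fold and a rise to 1.61-fold.

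The spread of Srsf2 among libraries, as SD over mean, was 21.0% in 8wk STZ, 24.9% in 4wk STZ and 6.84% in Control. Within 8wk STZ, the highest library, 8wk STZ 2, and the lowest, 8wk STZ 1, stood 94.6 CPM apart, where counting error is near 1% of each value. Without 8wk STZ 1 or any other single library, the log2 fold change against Control stayed between 2.40 and 2.64, and without Control 3 and 4wk STZ 3 together it was 2.53.

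**Figure D2:**
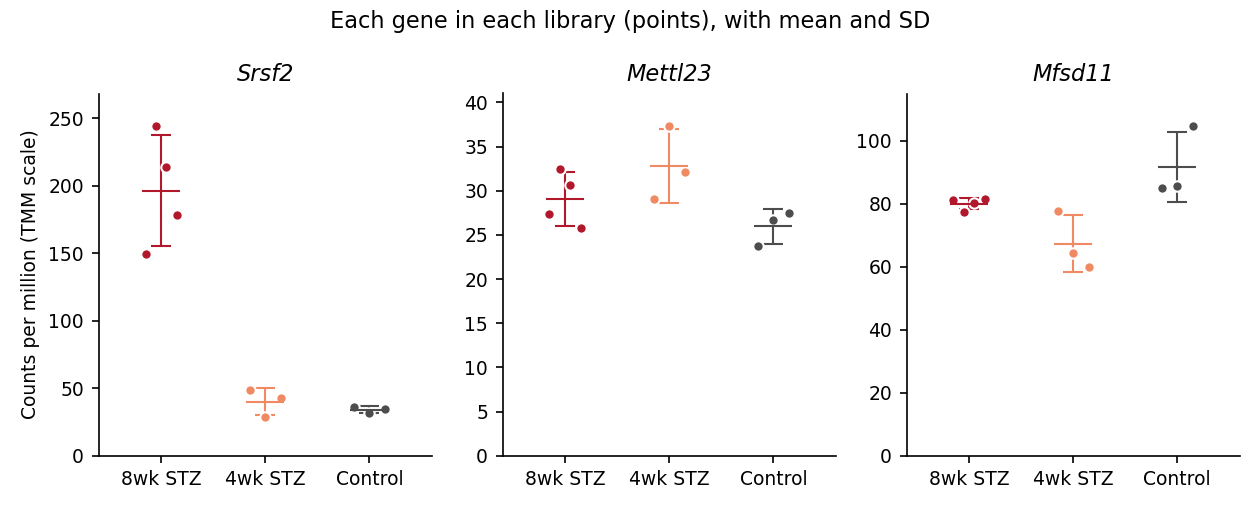
CPM (TMM scale) of Srsf2, Mettl23 and Mfsd11 in each library (points) with the group mean and SD (bars), for 8wk STZ (n = 4), 4wk STZ (n = 3) and Control (n = 3), each panel on its own axis from 0. The 4 8wk STZ libraries of Srsf2 lie between 149.4 and 243.9 CPM, above every 4wk STZ and Control library, and the neighbours show no such gap.

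Mettl23 stayed within a narrow range. It had 27.4, 32.5, 30.6 and 25.7 CPM in 8wk STZ libraries, 29.1, 37.3 and 32.1 CPM in 4wk STZ libraries, and 23.7, 26.7 and 27.5 CPM in Control libraries. The 8wk STZ libraries overlapped both other groups, and the 3 4wk STZ libraries lay above the 3 Control libraries. It averaged 29.1 ± 3.05 CPM in 8wk STZ, 32.8 ± 4.16 CPM in 4wk STZ and 26.0 ± 2.01 CPM in the controls (SD). The log2 fold change of 8wk STZ over Control was 0.16 (SE 0.15).

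For 4wk STZ over Control, the log2 fold change of Mettl23 was 0.34 (SE 0.16, 95% interval -0.0034 to 0.68), with an edgeR adjusted p of 0.517. For 8wk STZ over 4wk STZ it was -0.18 (SE 0.14, 95% interval -0.49 to 0.14, edgeR adjusted p = 0.674). Neither difference passed the test. With a library left out the 8wk STZ over 4wk STZ value ran from -0.25 to -0.072, the last without 4wk STZ 2, and the 8wk STZ over Control value from 0.0985, without Control 1, to 0.22. The 8wk STZ over Control value was 0.27 with library totals as the scaling. Without Control 3 and 4wk STZ 3 together, Mettl23 stood at 0.40 for 4wk STZ and 0.21 for 8wk STZ over Control.

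Mfsd11 stood below Control in both STZ groups, by amounts that were small beside the Srsf2 difference and that did not pass the test at 4 weeks. It had 81.2, 77.5, 80.2 and 81.4 CPM in 8wk STZ libraries, 77.6, 64.4 and 60.1 CPM in 4wk STZ libraries, and 85.1, 85.6 and 104.6 CPM in Control libraries. On this TMM scale all 4 8wk STZ and all 3 4wk STZ libraries lay below the lowest Control library. With library totals as the scaling 8wk STZ overlapped Control, with 8wk STZ 2 at 83.8 and 8wk STZ 4 at 84.8 CPM, above Control 2 at 83.4. It averaged 80.1 ± 1.83 CPM in 8wk STZ, 67.3 ± 9.13 CPM in 4wk STZ and 91.8 ± 11.1 CPM in the controls (SD).

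The log2 fold change of Mfsd11 for 8wk STZ over Control was -0.20 (SE 0.12), and -0.09 without Control 3, its highest library. With library totals as the scaling it was also -0.09. For 4wk STZ over Control it was -0.45 (SE 0.12, 95% interval -0.72 to -0.17). The unadjusted p was 0.00442 and the edgeR adjusted p over all genes 0.315, so the difference did not pass. Without Control 3 and 4wk STZ 3 together it was -0.27 (edgeR adjusted p = 0.545). In the authors' deposited table the false discovery rate (FDR) of Mfsd11 at 4 weeks was 0.161. For 8wk STZ over 4wk STZ the log2 fold change was 0.25 (SE 0.12, 95% interval -0.0082 to 0.51, edgeR adjusted p = 0.387).

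The background of these counts differed by contrast. For 4wk STZ against Control, edgeR's quasi-likelihood test called 0 of 18957 genes (0%), none of the 3 members among them, beside 1849 genes at an unadjusted p below 0.05. The edgeR likelihood ratio test called 244, DESeq2 299 and limma-voom 0 genes, again with no member among them. Groups did not overlap for 12.3% of all genes in that contrast, and for 2 of the 3 members, Mettl23 and Mfsd11. For 8wk STZ against Control 2970 genes had an unadjusted p below 0.05. In that contrast 2.37% of genes were called (0.971% higher, 1.4% lower) and groups did not overlap for 16.9%, with Srsf2 and Mfsd11 among them. These overlaps are on the TMM scale, and with library totals Mfsd11 in 8wk STZ overlapped Control. For 8wk STZ against 4wk STZ 0.918% were called (0.396% higher, 0.522% lower) and 15.4% did not overlap, with Srsf2 among them.

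Each gene's whole count was divided by the exonic bases it shares with neither of the others, as if no read on shared bases was counted. The estimate of reads on shared bases further on takes such reads as counted instead. Divided by unshared bases, Srsf2 stood at 88.8 CPM per kb in 8wk STZ, 18.2 in 4wk STZ and 15.4 in Control. On that scale Mettl23 stood at 14.7 CPM per kb in 8wk STZ, 16.6 in 4wk STZ and 13.1 in Control, and Mfsd11 at 12.3 in 8wk STZ, 10.3 in 4wk STZ and 14.1 in Control. In all 4 8wk STZ libraries Srsf2 lay above both neighbours on this scale, and in all 3 4wk STZ libraries Srsf2 and Mettl23 lay above Mfsd11.

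A ratio of reads within a library does not depend on library scaling. The ratio of Srsf2 reads to the summed reads of Mettl23 and Mfsd11 was 1.37, 2.22, 1.93 and 1.66 in 8wk STZ libraries, 0.454, 0.285 and 0.466 in 4wk STZ libraries, and 0.333, 0.282 and 0.261 in Control libraries. Srsf2 had more reads than both neighbours together in all 4 8wk STZ libraries and fewer in all 6 others. On the log2 scale the mean ratio was 0.82 ± 0.30 in 8wk STZ, -1.35 ± 0.40 in 4wk STZ and -1.78 ± 0.18 in Control (SD), a difference of 2.61 between 8wk STZ and Control.

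The ratio of Mettl23 to Mfsd11 reads averaged 0.364 ± 0.0460 in 8wk STZ, 0.496 ± 0.107 in 4wk STZ and 0.284 ± 0.0251 in Control. Both STZ groups lay above Control in every library for this ratio, by a narrow margin between 8wk STZ 4 at 0.316 and Control 2 at 0.312. The counting error of Mettl23 alone in those libraries was 2.55% and 2.90%.

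**Figure D3:**
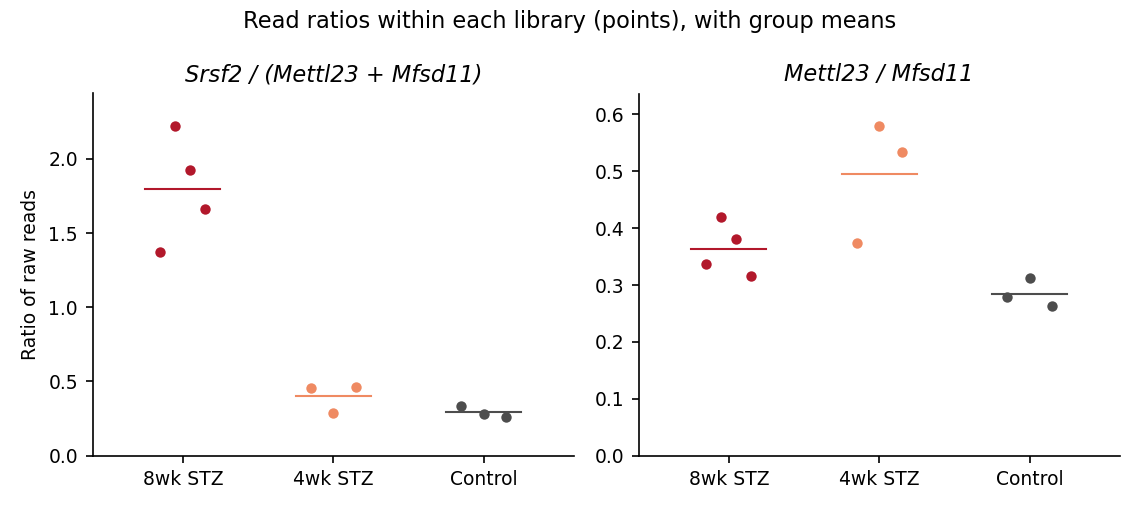
Ratios of raw reads within each library (points) with group means (lines): Srsf2 over the sum of Mettl23 and Mfsd11 (left) and Mettl23 over Mfsd11 (right), for 8wk STZ, 4wk STZ and Control. The left ratio runs from 1.37 to 2.22 in 8wk STZ and reaches at most 0.466 in the other 6 libraries, while the right ratio is highest in 4wk STZ.

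Reads on the shared bases were estimated from the neighbours' counts, so reads left out of those counts are missing from the estimate. The estimate did not differ between groups by more than its spread. With each neighbour's counted reads spread evenly over its exons, the bases shared with Srsf2 would hold 8.22 ± 0.453 CPM in 8wk STZ, 8.34 ± 0.565 CPM in 4wk STZ, against 8.16 ± 0.728 CPM in Control. Those amounts are 4.30% of the Srsf2 count in 8wk STZ, 22.1% in 4wk STZ and 24.0% in Control. Between 8wk STZ and Control they differed by 0.0534 CPM, where Srsf2 differed by 162 CPM. With the shared stretches widened by a read length of 150 bases on each side, the amounts were 11.3 CPM in 8wk STZ, 11.4 CPM in 4wk STZ and 11.3 CPM in the controls.

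The whole count of both neighbours needs no assumption of even coverage, but limits what they could lend only where a read on shared bases was counted for both genes. Reads left out of the neighbours' counts would be missing from it, and what such reads could add was not tested. The whole count was 109 ± 1.60 CPM in 8wk STZ, 100.2 ± 7.36 CPM in 4wk STZ, against 118 ± 12.5 CPM in Control. The difference between 8wk STZ and Control was -8.59 CPM, opposite in sign to the 162 CPM of Srsf2. The 3 genes together reached 305 ± 42.3 CPM in 8wk STZ, 140.3 ± 12.99 CPM in 4wk STZ, against 152 ± 12.8 CPM in Control.

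**Figure D4:**
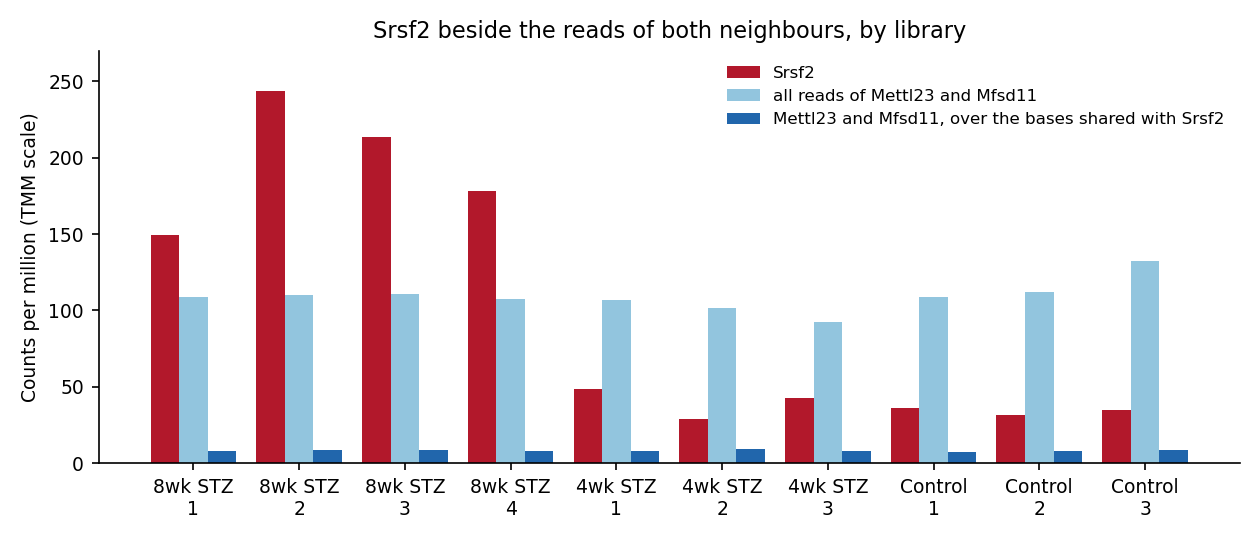
CPM (TMM scale) in each library of Srsf2 (red), of all reads counted for Mettl23 and Mfsd11 (light blue), and of the reads both would have over bases shared with Srsf2 at even coverage (dark blue), for 8wk STZ, 4wk STZ and Control. The dark bars stay between 7.50 and 8.98 CPM in all 10 libraries, and the red bars exceed the light ones in the 4 8wk STZ libraries alone.

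Sharing could also have run the other way, from Srsf2 into its neighbours. At even coverage, the Srsf2 difference would have added 25.2 CPM to Mettl23 and 15.8 CPM to Mfsd11 between 8wk STZ and Control, had its reads on shared bases been counted for them as well. The measured differences were 3.10 CPM for Mettl23 and -11.7 CPM for Mfsd11. If reads on shared bases were not counted for both genes, no such addition could appear, whatever the sharing. The genes described next had no such reads counted, so whether Srsf2 reads were shared was not tested by these values.

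How the deposited table treated bases shared by 2 genes was read from other genes in it. Genes that lie wholly within the exons of another gene on the opposite strand, and that would have held at least 1000 reads if shared reads counted for both, numbered 70, and all 70 had 0 reads. Such genes on the same strand numbered 108, and all 108 had 0 reads. The median count they would have held was 2914 and 2787 reads. Gm47123, within the exons of the lysosomal protease gene Ctsl, had 0 reads over 1742 bases where Ctsl had 412528 reads. A count of 0 among 70 and among 108 allows a share with reads of up to 4.286% and 2.778%. At these genes, reads on bases shared by 2 genes were not counted for the inner gene on either strand, and Srsf2 reads within its own 2 shared stretches may have been left out as well. Strand, splice form and unannotated transcripts of Srsf2 were not tested, since the table holds 1 count per gene from libraries that do not mark strand.

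The other SR protein genes had log2 fold changes of at most 0.69 for 8wk STZ over Control. Of 12 others listed, 11 were tested, and edgeR's quasi-likelihood test called 0 of them for 8wk STZ against Control. An unadjusted p below 0.05 was found for 5 of the 11, beside 2970 of all 18957 genes. The likelihood ratio test called 2 of the 11 and DESeq2 called 3, all higher. Over all 18957 genes these tests called 1166 (626 higher) and 1436 (729 higher). Their median log2 fold change was 0.29, with 10 of 11 above 0, against -0.0061 for all genes. Srsf11 had the lowest adjusted p, with a mean of 108.4 ± 10.6 in 8wk STZ and 70.9 ± 5.67 in Control, in CPM. Its log2 fold change was 0.61 (edgeR adjusted p = 0.0908). Srsf5 stood at 181, 255, 264 and 242 CPM in 8wk STZ libraries and at 127, 138 and 173 CPM in Control libraries (log2 fold change 0.69, edgeR adjusted p = 0.119). Its lowest 8wk STZ library was 8wk STZ 1, as for Srsf2.

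The remaining SR protein genes had smaller values. Tra2a and Srsf7 had log2 fold changes of 0.55 and 0.51 for 8wk STZ over Control. Groups did not overlap for Srsf5, Srsf6, Srsf7, Srsf11 and Tra2a, 5 of the 11, beside 16.9% of all genes. Srsf6, Srsf1, Srsf3, Srsf4, Srsf9 and Tra2b lay between 0.35 and 0.03, and Srsf10 at -0.07. For 4wk STZ over Control the list ranged from -0.20 (Srsf5) to 0.47 (Srsf11), with a median of 0.05 and the lowest adjusted p at 0.451.

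The place of Srsf2 within the family differed between the groups. Per kb of exonic length, Srsf2 was the first of the 12 tested SR protein genes in 8wk STZ, at 66.4 ± 13.9 CPM per kb, ahead of Srsf5 at 59.1 ± 9.37, Srsf7 at 36.5 ± 3.14 and Srsf9 at 34.1 ± 2.99. The spreads (mean ± SD) of Srsf2 and Srsf5 overlap. In 4wk STZ and in Control Srsf2 held place 7, at 13.6 ± 3.38 and 11.5 ± 0.788 CPM per kb. These values divide by all 2958 exonic bases of Srsf2, and its place in those 2 groups depends on that. Over its 2210 unshared bases it stood at 18.2 CPM per kb in 4wk STZ, above Srsf3 at 16.4. In Control it stood at 15.4 on that scale, above Srsf10 at 15.2. The values of Srsf3 and Srsf10 divide by all their exonic bases, and any bases they share with other genes were not set apart. The 12 SR protein genes summed to 1268 ± 98.5 CPM in 8wk STZ, 912 ± 52.4 CPM in 4wk STZ, against 882 ± 14.1 CPM in Control, and without Srsf2 to 1072 ± 60.9 CPM in 8wk STZ, 872 ± 50.4 CPM in 4wk STZ and 848 ± 11.8 CPM in the controls. Srsf2 made up 15.4 ± 2.15% of the sum in 8wk STZ, 4.40 ± 1.05% in 4wk STZ and 3.87 ± 0.205% in Control.

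Genes that act on SR proteins included 3 that rose at 8 weeks. Of 9 tested kinases, importers and hydroxylases, 3 were called higher and 0 lower for 8wk STZ against Control, beside 0.971% and 1.4% of all genes. Their median log2 fold change was 0.59, against -0.0061 for all genes. Clk4, a nuclear kinase of SR proteins, had 44.9, 54.0, 56.4 and 47.5 CPM in 8wk STZ libraries, 20.7, 21.4 and 13.6 CPM in 4wk STZ libraries, and 26.3, 21.2 and 20.8 CPM in Control libraries. Its 8wk STZ libraries lay above all others. Clk4 rose against Control (log2 fold change 1.15, SE 0.18, edgeR adjusted p = 0.0115) and against 4wk STZ (1.45, SE 0.19, edgeR adjusted p = 0.0164), and it passed in 7 of 7 fits that left out 1 library in each contrast. Without Control 3 and 4wk STZ 3 together, which stand apart from the other libraries, the second comparison missed the threshold (adjusted p = 0.0592).

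Clk1, a second nuclear kinase of SR proteins, had 124, 189, 185 and 149 CPM in 8wk STZ libraries, 93.8, 92.6 and 109.7 CPM in 4wk STZ libraries, and 81.7, 77.4 and 100.4 CPM in Control libraries. It rose against Control (log2 fold change 0.90, SE 0.16, edgeR adjusted p = 0.0170), and missed the threshold without Control 1, Control 2 or 8wk STZ 3 (adjusted p up to 0.0668). Against 4wk STZ it was not called (log2 fold change 0.71, edgeR adjusted p = 0.0687). Srpk1, a cytoplasmic kinase that readies SR proteins for import, averaged 102 ± 8.84 CPM in 8wk STZ, 84.7 ± 4.85 CPM in 4wk STZ, against 67.2 ± 6.33 CPM in Control. It rose too (log2 fold change 0.61, edgeR adjusted p = 0.0170), and missed the threshold without Control 2, Control 3 or 8wk STZ 4 (adjusted p up to 0.0643). Its 3 4wk STZ libraries, at 81.1 to 90.2 CPM, lay below every 8wk STZ library and above every Control library, and 8wk STZ against 4wk STZ was not called (log2 fold change 0.27, edgeR adjusted p = 0.289).

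**Figure D5:**
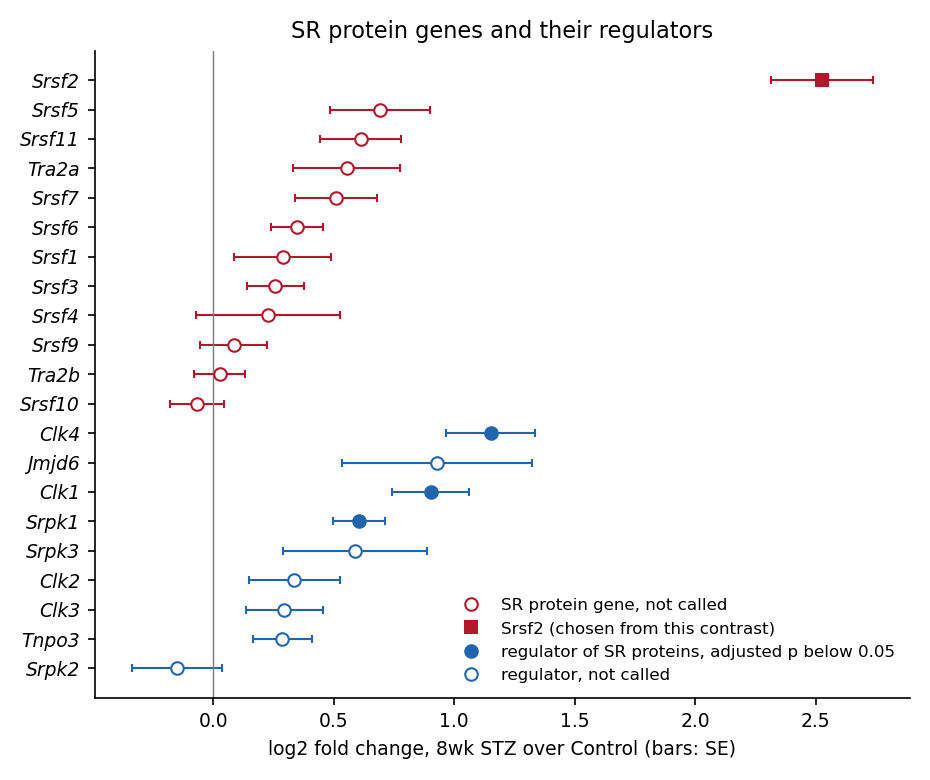
Log2 fold change with SE (bars) for 8wk STZ over Control of the 12 tested SR protein genes (red) and 9 genes that act on SR proteins (blue), filled where called, with Srsf2 as a filled square because it was chosen from this contrast. Srsf2 lies at 2.52, the other SR protein genes between -0.07 and 0.69, and the called kinases Clk4, Clk1 and Srpk1 at 1.15, 0.90 and 0.61.

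Factors that recognise the 3′ splice site, which U2AF and the U2 particle bind, had values in both directions. Of 9 tested, 0 were called higher and 1 lower for 8wk STZ against Control, beside 0.971% and 1.4% of all genes. Sf3a1, a subunit of that particle, fell to 66.5 ± 6.02 CPM in 8wk STZ, against 114 ± 26.6 CPM in Control (log2 fold change -0.78, edgeR adjusted p = 0.0449). It kept its call in 1 of 7 fits that left out a library and lost it without Control 2, Control 3 or any of the 4 8wk STZ libraries (adjusted p up to 0.137). With library totals as the scaling Sf3a1 missed the threshold (edgeR adjusted p = 0.0655) and 1 other gene of the list was called higher, beside 356 of all genes. The likelihood ratio test called 2 higher and 2 lower, beside 626 and 540 of all genes. DESeq2 called 3 higher and 2 lower, beside 729 and 707 of all genes. The list's median was 0.33.

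Of 14 genes of nonsense-mediated decay, the pathway that degrades some Srsf2 splice forms, 1 was called higher for 8wk STZ against Control. Of all genes 0.971% were called higher. The median of the 14 was 0.17. Smg1, the kinase that starts the pathway by acting on UPF1, had 33.8, 54.6, 56.0 and 53.2 CPM in 8wk STZ libraries and 29.0, 13.8 and 21.6 CPM in Control libraries. It rose (log2 fold change 1.20, edgeR adjusted p = 0.0332) but passed in 2 of 7 fits with a library left out, losing the call without Control 2, Control 3, 8wk STZ 2, 8wk STZ 3 or 8wk STZ 4 (adjusted p up to 0.0973). Against 4wk STZ, Smg5, which binds phosphorylated UPF1, rose (log2 fold change 1.07, edgeR adjusted p = 0.0350), and passed in 0 of 7 such fits (adjusted p between 0.0560 and 0.117).

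The relatives of the neighbours held 1 called gene. Of the 6 other tested METTL21-type methyltransferases, 0 were called by edgeR's quasi-likelihood test for 8wk STZ against Control, and DESeq2 called 1. Over all 18957 genes DESeq2 called 1436. An unadjusted p below 0.05 was found for 3 of the 6, beside 2970 of all 18957 genes. The 2 most abundant of the 6 were Eef2kmt and Mettl21a, with log2 fold changes of 0.46 and -0.42. The only tested relative of Mfsd11 was Unc93b1, which carries endosomal Toll-like receptors. It fell to 2280 ± 105 CPM in 8wk STZ, against 2908 ± 159 CPM in Control (log2 fold change -0.35, edgeR adjusted p = 0.0470), a call that was lost in 7 of 7 fits, whichever single 8wk STZ or Control library was left out (adjusted p between 0.0654 and 0.153). Its 4wk STZ libraries, at 2536, 2126 and 2238 CPM, also lay below every Control library, the lowest of which had 2725 CPM. The log2 fold change of Unc93b1 was -0.34 for 4wk STZ over Control (edgeR adjusted p = 0.275). For 8wk STZ over 4wk STZ it was -0.013. No gene of any of these lists was called for 4wk STZ against Control.

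Within 100 kb of Srsf2, 9 genes were annotated and 6 tested. Beside the members these were Mxra7, Jmjd6 and Mgat5b, and none was called in any contrast. Jmjd6 spans 116837432 to 116843449 on the minus strand and so overlaps the start of Mettl23 at 116843278. Bases that Mettl23 shares with Jmjd6 were not set apart in the values above. Jmjd6, a hydroxylase that acts on splicing factors, had 34.1, 38.3, 39.3 and 34.2 CPM in 8wk STZ libraries, 28.8, 12.2 and 21.0 CPM in 4wk STZ libraries, and 25.5, 24.7 and 7.34 CPM in Control libraries. Its 8wk STZ libraries lay above all others, with a log2 fold change over Control of 0.93 (SE 0.39, edgeR adjusted p = 0.284). Control 3 was the lowest of its group.

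Some genes followed Srsf2 closely across the 10 libraries. Over 9621 genes averaging a log2 CPM of 2 or more, the highest Pearson correlations of log2 CPM with Srsf2 belonged to Rgl2 (0.981), Ttc5 (0.979), Sat1 (0.977), Pou2f2 (0.972) and Ivns1abp (0.968). Rgl2, an exchange factor for Ral GTPases, averaged 92.3 ± 7.71 CPM in 8wk STZ, 29.4 ± 4.62 CPM in 4wk STZ, against 30.6 ± 1.33 CPM in Control. Sat1, an enzyme of polyamine breakdown, averaged 960.5 ± 55.8 CPM in 8wk STZ, 428 ± 46.0 CPM in 4wk STZ, against 370.4 ± 25.2 CPM in Control. Mettl23 and Mfsd11 correlated with Srsf2 at 0.012 and 0.043 over the same 10 libraries. The points are libraries, which share depth and group, and the values are descriptions. Over the 6 4wk STZ and Control libraries alone, Mettl23 and Mfsd11 stood at -0.16 and -0.16.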

How the data were processed

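Microglia RNA from 10 mice was amplified with the SMARTer Ultra Low kit and sequenced in pairs, per the labels' protocols. Libraries of this kit do not mark strand. The authors deposited whole-number read counts per gene; the submitters' processing notes name STAR, featureCounts, Salmon, edgeR and limma and the build GRCm38. Annotation release, strand setting and treatment of reads on overlapping genes are not stated in any source at hand. A second deposited table holds the authors' log2 fold changes, likelihood ratio scores and p-values with FDR for 14475 genes, whose counts for the 3 members equal those of the table of all genes. The deposited number of transcripts per gene was compared with GENCODE vM21.

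Of 55774 entries, 287 repeated an identifier with identical counts and were dropped, which left 55487 genes. Counts were scaled by TMM, filtered with filterByExpr (18957 genes) and fitted in edgeR 4.0.16 (R 4.3.3) with 1 mean per group over 10 libraries and 7 residual degrees of freedom. The test was the robust quasi-likelihood F-test with Benjamini-Hochberg adjustment over all genes, with calls at an adjusted p below 0.05. The code was tested on simulated data. Alternatives used limma 3.58.1, DESeq2 1.42.0, other scalings and filters, libraries left out and a replicate block. Counting errors leave out spread between animals and amplification, and reads carry no molecular identifiers. Replicate libraries differed far beyond counting noise (chi-square over its degrees of freedom 48.2 to 79.7).

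Named genes are the members, the SR protein genes, called genes of the other lists or else their 2 most abundant, Jmjd6 and called genes within 100 kb, and the 5 genes most correlated with Srsf2 over the 10 libraries; the same list over the 4wk STZ and Control libraries is not reported here. For the lists of 3′ splice site, decay and kinase genes only called ones are named. The members and lists were chosen with earlier results of these data known. Correlations are Pearson's r on log2 CPM with a prior count of 2, with no test.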

Additional observations from a re-analysis of the deposited data

Results flagged for a closer look

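Among 54 sets of 4 8wk STZ values checked, 5 held a library whose gap to its nearest neighbour filled a larger part of the range than Dixon's 95% limit for 4 samples allows. Chance gives about 1 in 20 such sets. The members themselves were not among them. Smg1 was at 33.8 CPM in 8wk STZ 1 and between 53.2 and 56.0 CPM in the other three (gap over range 0.875). The same library was lowest for Sf3b1 (0.836) and Upf3b (0.918), and also held the lowest Srsf2 value of its group. Sf3a3 was highest in 8wk STZ 3 (0.893) and Mettl21a in 8wk STZ 2 (0.860).

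Among 52 genes whose 8-week and 4-week effects were compared against the same Control libraries, the difference between the 2 effects passed for 2. Of all genes 0.918% passed. Clk4 differed by 1.45 on the log2 scale (edgeR adjusted p = 0.0164) and Smg5 by 1.07 (edgeR adjusted p = 0.0350). These values, and the share of all genes, are those of the 8wk STZ against 4wk STZ contrast.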

How the results depend on the processing

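The log2 fold changes of Srsf2, Mettl23 and Mfsd11 kept their sign in the 3 contrasts under all settings tried, and no member passed or lost a test. Srsf2 stayed between 2.40 and 2.64 for 8wk STZ against Control and between 0.07 and 0.42 for 4wk STZ against Control. Mfsd11 ranged from -0.56 to -0.27 for 4wk STZ against Control, with adjusted p between 0.0608 (DESeq2) and 0.697. The log2 ratio of Srsf2 to its neighbours was 2.34 with Mettl23 alone, against 2.61, and stayed between 2.50 and 2.73 with a library left out. The estimated neighbour reads on shared bases were 11.3 CPM in 8wk STZ with widened stretches, against 8.22.

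Replicate numbers did not pair the libraries: same-numbered libraries correlated at -0.0297 to 0.0348 in their deviations from group means and others at -0.0393 to 0.0394. With the replicate block the counts of genes called were 0 for 4wk STZ against Control, 44 for 8wk STZ against Control and 0 for 8wk STZ against 4wk STZ, and Srsf2 stood at 2.57 against Control. Under the block none of the lists of SR protein, kinase, 3′ splice site, decay and neighbour-relative genes held a called gene; marker lists were not refitted.

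Counts of calls depended on the test more than on scaling. For 4wk STZ against Control they were 12 with no filter, 244 by the likelihood ratio test, 299 by DESeq2 and 0 to 1 with a library left out. For 8wk STZ against Control they were 449, 1166 by the likelihood ratio test, 1436 by DESeq2, 275 without Control 3 and 4wk STZ 3 together, and 206 to 255 with a library left out. Of these, 184 were higher and 265 lower with TMM, 356 and 183 with library totals, which move the median of all genes by 0.104, and 151 and 337 with upper-quartile factors. For 8wk STZ against 4wk STZ they were 174, 277 with no filter, 759 by the likelihood ratio test, 995 by DESeq2, 6 without both libraries, 100 with only those groups fitted, and 13 to 118 with a library left out. There the split was 75 higher and 99 lower with TMM, 119 and 49 with library totals, and 68 and 150 with upper-quartile factors.

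For 8wk STZ against Control, SR protein genes called numbered 0, against 2 with no filter, 2 by the likelihood ratio test, 3 by DESeq2, and 1 without both libraries or with only those groups fitted. Called 3′ splice site genes numbered 1, against 2 with DESeq2's size factors as the scaling, upper-quartile factors, no filter or limma-voom. They numbered 4 by the likelihood ratio test, 5 by DESeq2's own test, 0 without both libraries, and 0 to 1 with a library left out. Called decay genes numbered 1, against 2 with library totals, no filter or another test, 0 without both libraries, and 0 to 1 with a library left out. DESeq2 called 1 METTL21-type gene, and 0 to 1 were called with a library left out. Unc93b1 was called 0 times with library totals, with no filter, without both libraries or with any library left out. Called kinases, importers and hydroxylases numbered 1 to 3 with a library left out. The causes were not tested. Isoforms and the strand of reads lie beyond the depth of a table with 1 count per gene.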
